A study of Mus musculus with 18 samples.

Results

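Transcripts of 10 enzymes that carry glucose to lactate were followed in the frontal cortex of mice: Hk1, Gpi1, Pfkm, Aldoa, Tpi1, Gapdh, Pgk1, Eno1, Pkm and Ldha. They were chosen by gene symbol, with 1 gene for each step they cover, and are 10 of the 55487 genes of the deposited count table. A second row of the table, ENSMUSG00000114515, also has the symbol Aldoa and is described apart from the 10. The mRNA of the whole tissue had been sequenced at an age of 9 to 10 months in 3 genotypes, WT, APP/PS1 and APP/PS1/FTnKO, each with 6 mice of which 3 were female. APP/PS1 mice carry the transgenes of that name and come from a B6C3 line. By the study's methods all 3 genotypes were littermates homozygous for the floxed allele of the farnesyltransferase (FT) β-subunit, and APP/PS1/FTnKO mice, called the knockout here, also carried Cre recombinase under the CamKIIα promoter. The deposited record calls the WT mice C57BL/6J, so their background is not settled. CamKIIα drives Cre in excitatory neurons of the forebrain after birth, so glia, vessels and interneurons in the same tissue keep the enzyme. WT mouse 19622, a female, is given apart throughout, and every comparison is of the other 17 mice, 5 of them WT, unless stated.

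Glycolysis begins when a hexokinase traps glucose in the cell as its phosphate. It then runs through an isomerase, the committed step of phosphofructokinase, and aldolase, which splits the sugar into a pair of triose phosphates that triose phosphate isomerase interconverts. The lower part of the pathway, from glyceraldehyde phosphate dehydrogenase to pyruvate kinase, returns NADH and ATP, and lactate dehydrogenase regenerates NAD+ by turning pyruvate into lactate. In brain, neurons and astrocytes use different isozymes for several steps: aldolase C is known as an astrocyte and Purkinje cell form and enolase 2 as a neuronal form. Transcription of many of these genes is raised by the hypoxia-inducible factor HIF, whose level is in turn raised by mTORC1. FT attaches a farnesyl group to small GTPases such as Ras and Rheb, the latter an activator of mTORC1.

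The total counts per mouse were 15925432 to 21030935, and 17414 genes passed the filter on low counts, all 10 enzymes among them. The RNA integrity number (RIN) was 8.5 to 8.8 in the 5 WT mice. It was 7.7 to 8.7 in APP/PS1 mice and 7.6 to 8.7 in the knockout. Fntb, which encodes the deleted FT subunit, measured 7.84 to 14.7 CPM in the knockout, 14.2 to 32.1 in APP/PS1 and 14.1 to 32.2 in WT mice, where CPM are counts scaled to a common library size after TMM normalization. In tissue where other cells keep the gene, its difference between knockout and APP/PS1 mice did not pass the test (log2 fold change -0.77, edgeR adjusted p = 0.251). App and Prnp, whose reads include those of the transgenes, separated both transgenic genotypes from WT, with log2 fold changes of 0.89 and 1.58 in APP/PS1 against WT mice. All markers of excitatory neurons and interneurons, the defining cells of cortex, were detected. WT mouse 19622 stood apart: 9 cerebellar markers summed to 2927 CPM in it and to 40.3 to 71.3 CPM in the other 17 mice.

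Counts per mouse were 21905 to 33262 for Aldoa, 15308 to 23128 for Pkm and 10239 to 14561 for Gpi1, while Gapdh, the standard reference transcript of many assays, had 807 to 1404. In GRCm38 the genes lie at chr10:62268855-62379908 (Hk1, ENSMUSG00000037012), chr7:34201330-34230336 (Gpi1, ENSMUSG00000036427), chr15:98092589-98132451 (Pfkm, ENSMUSG00000033065) and chr7:126795234-126800751 (Aldoa, ENSMUSG00000030695). Tpi1 (ENSMUSG00000023456) and Gapdh (ENSMUSG00000057666) lie on chromosome 6, at chr6:124810586-124814296 and chr6:125161715-125166467. The others are at chrX:106187100-106203699 (Pgk1, ENSMUSG00000062070), chr4:150236721-150248879 (Eno1, ENSMUSG00000063524), chr9:59656368-59679375 (Pkm, ENSMUSG00000032294) and chr7:46841475-46855627 (Ldha, ENSMUSG00000063229). A count is the sum over all exons of a gene, so the splice forms of Pkm that yield the M1 and M2 enzymes were not told apart.

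Several of these genes have near-identical copies elsewhere in the genome, and the sources used here do not say how reads that match several places were counted. For Gapdh, 53.1% of all windows of 100 bases in its transcripts also occur in transcripts of 86 other genes, 82 of them pseudogenes. Those 86 genes together had 1074 to 4065 counts per mouse. For Pgk1 the share was 67.0%, with 3 pseudogenes, which held 13 to 49 counts. For Eno1 it was 39.5%, mostly with Eno1b, a protein-coding copy with 1998 to 2753 counts, and with the pseudogene Gm4735, with 214 to 1575. The share was 7.52% for Pkm, 7.43% for Pfkm, 7.04% for Gpi1, below 1% for Hk1, Tpi1 and Ldha, and 0% for Aldoa. The values of Gapdh, Pgk1 and Eno1 are therefore uncertain, and those of Aldoa, Hk1, Tpi1 and Ldha are the least exposed to shared reads.

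Levels were divided by the union of all annotated exons of a gene, so the order of the enzymes depends on the annotation. This length was 6452 bases for Gpi1 and 3340 for Pfkm, while their protein-coding transcripts hold 2928 and 3258 distinct windows of 100 bases. Normalized for this exon length, Aldoa stood far above the other enzymes. Its level was 510.5 ± 40.0 CPM per kilobase (SD, n = 17 mice), followed by Pkm with 210.0 ± 14.8 and Tpi1 with 182.5 ± 10.00. Pgk1 had 128 ± 9.96, Pfkm 118 ± 5.44 and Gpi1 104 ± 8.99 CPM per kilobase. Eno1 had 77.7 ± 5.34, Ldha 72.1 ± 6.87, Hk1 42.0 ± 3.45 and Gapdh 14.5 ± 1.14. The order of neighbours held in each of the 17 mice for Aldoa over Pkm, Tpi1 over Pgk1, Gpi1 over Eno1, Ldha over Hk1 and Hk1 over Gapdh. It held in 16 of 17 mice for Pkm over Tpi1 and Pfkm over Gpi1, and in 14 of 17 for Pgk1 over Pfkm and Eno1 over Ldha, so those neighbours overlapped. Of the enzymes of the regulated early steps, Hk1 was thus above only Gapdh per length, while Pfkm lay in the middle, below Pgk1 and above Gpi1. Gapdh came last with a value that the shared sequence makes uncertain.

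**Figure D1:**
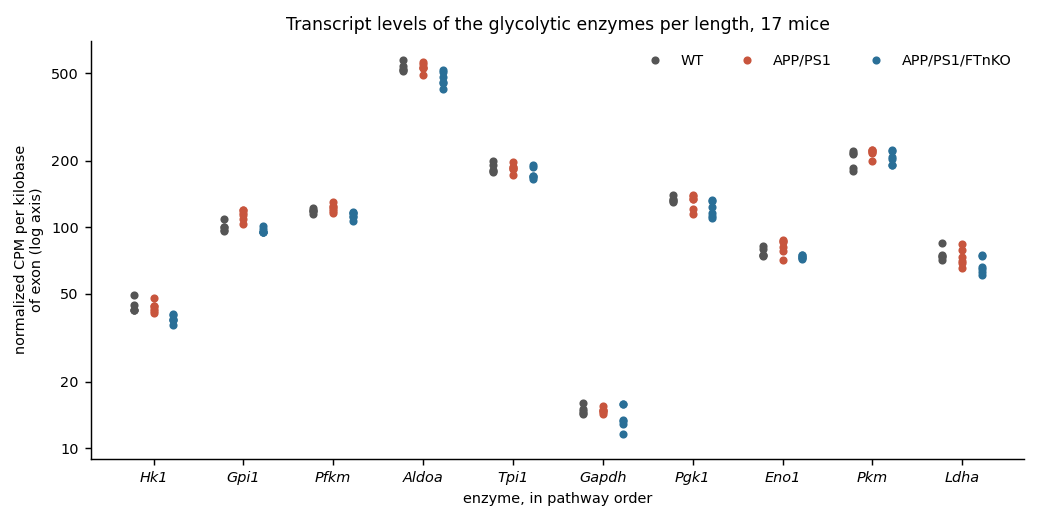
Levels of the 10 enzymes in normalized CPM per kilobase of exon (log axis), in pathway order, 1 point per mouse for 17 mice in 3 genotypes. Aldoa lies at 424 to 571 and Gapdh at 11.68 to 16.04, and differences between enzymes are much larger than differences between genotypes.

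The stretches of 250 bases before the RefSeq starts (GRCm38.p6) were searched on both strands for ACGTG and GCGTG, the core of the HIF response element, and for CACGTG, the E-box, which contains ACGTG. RefSeq gave 20 starts for the 10 genes. Per gene, 8 of 10 (80.0%) had either core before at least 1 start, against 41.5% of 27025 genes, which were not matched for base composition or number of starts. Per window it was 14 of 20 (70.0%), against 38.6% of all 32851 windows of the same length. The windows of starts 2 and 3 overlap in Pfkm, Aldoa and Eno1 and hold some of the same matches, so the 20 windows are not independent of each other. Gpi1 and Tpi1 had none. Printed here are windows of Gpi1 and Hk1, since these enzymes had the smallest p-values among the 10 in the knockout comparison below, and those of Pgk1 and the first start of Ldha as windows with ACGTG. Of the 2 Hk1 windows the second is shown because it holds the core GCGTG, while the first holds neither core. Capitals mark each core on either strand.
Gpi1, chr7:34230337-34230586, minus strand: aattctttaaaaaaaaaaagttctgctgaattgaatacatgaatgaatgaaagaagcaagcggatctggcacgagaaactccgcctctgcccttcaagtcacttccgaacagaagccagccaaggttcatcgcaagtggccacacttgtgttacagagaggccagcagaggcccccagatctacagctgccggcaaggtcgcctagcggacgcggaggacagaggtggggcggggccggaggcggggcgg
Hk1, second start, chr10:62340422-62340671, minus strand: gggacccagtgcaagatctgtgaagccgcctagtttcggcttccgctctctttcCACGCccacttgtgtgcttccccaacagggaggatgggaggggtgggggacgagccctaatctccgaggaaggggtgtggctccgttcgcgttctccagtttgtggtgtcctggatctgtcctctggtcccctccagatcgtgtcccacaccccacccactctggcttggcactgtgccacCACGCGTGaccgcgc
Pgk1, chrX:106186850-106187099, plus strand: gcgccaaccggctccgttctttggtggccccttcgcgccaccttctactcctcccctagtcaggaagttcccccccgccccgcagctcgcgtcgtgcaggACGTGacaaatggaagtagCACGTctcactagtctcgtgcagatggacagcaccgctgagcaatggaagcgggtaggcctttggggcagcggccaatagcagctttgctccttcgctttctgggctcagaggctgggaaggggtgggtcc
Ldha, first start, chr7:46845554-46845803, plus strand: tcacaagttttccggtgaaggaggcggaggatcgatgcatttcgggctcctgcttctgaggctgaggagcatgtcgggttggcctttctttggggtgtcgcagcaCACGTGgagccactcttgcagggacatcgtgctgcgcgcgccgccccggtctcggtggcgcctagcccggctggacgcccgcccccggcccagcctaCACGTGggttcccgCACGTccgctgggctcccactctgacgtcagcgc

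The Ldha window held 5 matches to ACGTG, 4 of them from 2 copies of CACGTG read on both strands. The Pgk1 window held 2 matches to ACGTG and the Hk1 window 3 to GCGTG. These are matches of letters in a fixed window, and no binding was measured.

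Whether neuronal loss of FT in APP/PS1 mice goes with a change in these enzymes was read from APP/PS1/FTnKO against APP/PS1 mice. All 10 enzymes were lower in the knockout, by small amounts: the median log2 fold change was -0.12, with a range from -0.23 for Gpi1 to -0.073 for Tpi1. Of all 17414 genes tested, 50.5% were lower, and their median was -0.0016. Of the 10, only Gpi1 passed the test (1 of 10, where 0.327% of all genes passed, 0.144% as lower and 0.184% as higher), and 5 of 10 had an unadjusted p under 0.05 (11.5% of all genes). The 10 genes were measured in the same libraries, so their directions are not independent of each other. In bulk tissue, fewer cells of a type and less RNA per cell cannot be told apart.

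Gpi1 encodes glucose phosphate isomerase, which turns glucose phosphate into fructose phosphate. It measured 672 CPM in the lowest, 744 in the median and 777 in the highest APP/PS1 mouse, and 613, 618 and 654 in the knockout. The groups did not overlap, which was so for 0.97% of all genes. The WT mice, at 647, 646, 705, 631 and 620 CPM, lay with the knockout and, but for 1 mouse, below all APP/PS1 mice. The means were 736 ± 40.6 (SD, n = 6) and 625.4 ± 16.05 (SD, n = 6), a log2 fold change of -0.23 (SE 0.045, edgeR quasi-likelihood adjusted p = 0.0367), or 0.850-fold. The size hardly moved over 24 other settings (-0.26 to -0.22), but the adjusted p passed in only 10 of them. It was 0.611 with WT mouse 19622 in the fit, 0.122 with only the APP/PS1 and APP/PS1/FTnKO mice fitted, 0.0512 without the filter, 1.6e-05 by DESeq2, and 0.0560 to 0.0895 when 1 of 11 mice was left out (WT 18944 and 19053, APP/PS1 19554, 19619, 19723 and 19744, APP/PS1/FTnKO 16974, 18943, 18973, 19720 and 19722).

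Hk1 encodes the main hexokinase of brain, which binds to mitochondria. It measured 349, 369 and 409 CPM in the lowest, median and highest APP/PS1 mouse and 309, 326 and 346 in the knockout. Here too the groups did not overlap. The log2 fold change was -0.18 (SE 0.047), and it missed the threshold in edgeR (adjusted p = 0.124) but passed by DESeq2 (adjusted p = 0.0209) and with RIN as a covariate (adjusted p = 0.0328).

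Of the other early enzymes, Pfkm, the muscle-type subunit of phosphofructokinase, measured 409 ± 16.6 CPM in APP/PS1 mice and 379 ± 13.05 in the knockout (SD, n = 6 each). Its log2 fold change was -0.11 (95% interval -0.19 to -0.028, adjusted p = 0.278). Aldoa, the most abundant aldolase, measured 1546 ± 73.2 and 1372 ± 100.5 CPM, a log2 fold change of -0.17 (-0.29 to -0.056, adjusted p = 0.222). Its ranges overlapped, with 1420.3, 1546 and 1631 CPM as lowest, median and highest in APP/PS1 mice and 1233, 1362 and 1497 in the knockout. Tpi1 measured 510.4 ± 22.1 and 485 ± 30.0 CPM and had the smallest difference of the 10, with a log2 fold change of -0.073 (-0.18 to 0.030, adjusted p = 0.620).

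In the lower part of the pathway the differences were -0.15 for Eno1 (adjusted p = 0.222), -0.13 for Ldha (0.488), -0.11 for Pgk1 (0.526), -0.099 for Gapdh (0.615) and -0.077 for Pkm (0.685) on the log2 scale. Eno1, which makes phosphoenolpyruvate, measured 440.5 ± 34.3 CPM in APP/PS1 mice and 397 ± 7.33 in the knockout, and the knockout mice were the more alike, at 386 to 405 CPM against 383 to 470.3. Ldha, which makes lactate, measured 244 ± 22.5 and 223 ± 20.2 CPM. Pgk1, the first ATP-making enzyme, measured 293 ± 22.8 and 272 ± 22.4 CPM. Gapdh measured 61.4 ± 1.56 and 57.3 ± 7.01 CPM. Its spread was wider in the knockout, where 2 mice lay at 65.6 and 65.8 CPM, above all APP/PS1 mice, and 4 at 48.3 to 55.9, below all of them. Pkm, the last ATP-making enzyme, measured 1091 ± 46.1 and 1034 ± 69.7 CPM.

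**Figure D2:**
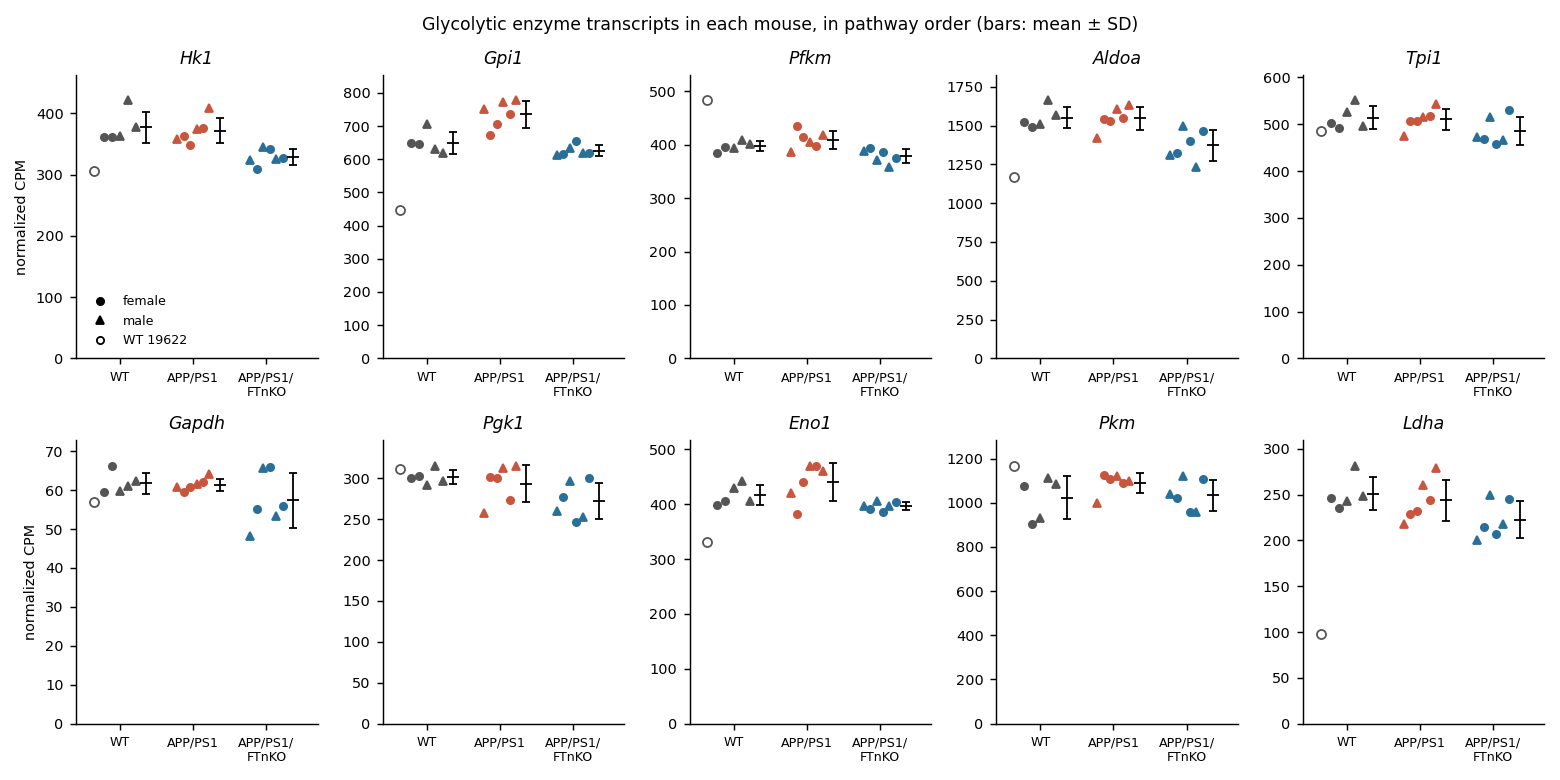
Normalized CPM of each enzyme in each mouse (y axis from 0, 1 panel per gene in pathway order), with females as circles, males as triangles, WT mouse 19622 as an open circle, and mean ± SD per genotype without 19622 as bars. Gpi1 and Hk1 are the panels in which no APP/PS1/FTnKO mouse reaches the lowest APP/PS1 mouse (654 against 672 CPM and 346 against 349 CPM).

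The same values were also read mouse by mouse. Set against the median of the 5 WT mice, 6 to 10 of the 10 enzymes were lower in each knockout mouse, 0 to 8 in each APP/PS1 mouse and 1 to 6 in each of the 5 WT mice. The mean log2 difference over the 10 was -0.16 to -0.0015 in the knockout. It was -0.048 to 0.13 in APP/PS1 and -0.026 to 0.092 in WT mice, so the ranges overlapped. The lowest knockout means, -0.16 and -0.15, belonged to 19720 and 16974, and the highest, -0.0015, to 18973. Mouse 16974 had the lowest RIN of all (7.6), and APP/PS1 mouse 16975, with a RIN of 7.7, had the lowest mean of its genotype (-0.048), while 19720 had a RIN of 8.6. With RIN as a covariate, or with any 1 mouse left out, all 10 enzymes stayed lower in the knockout.

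**Figure D3:**
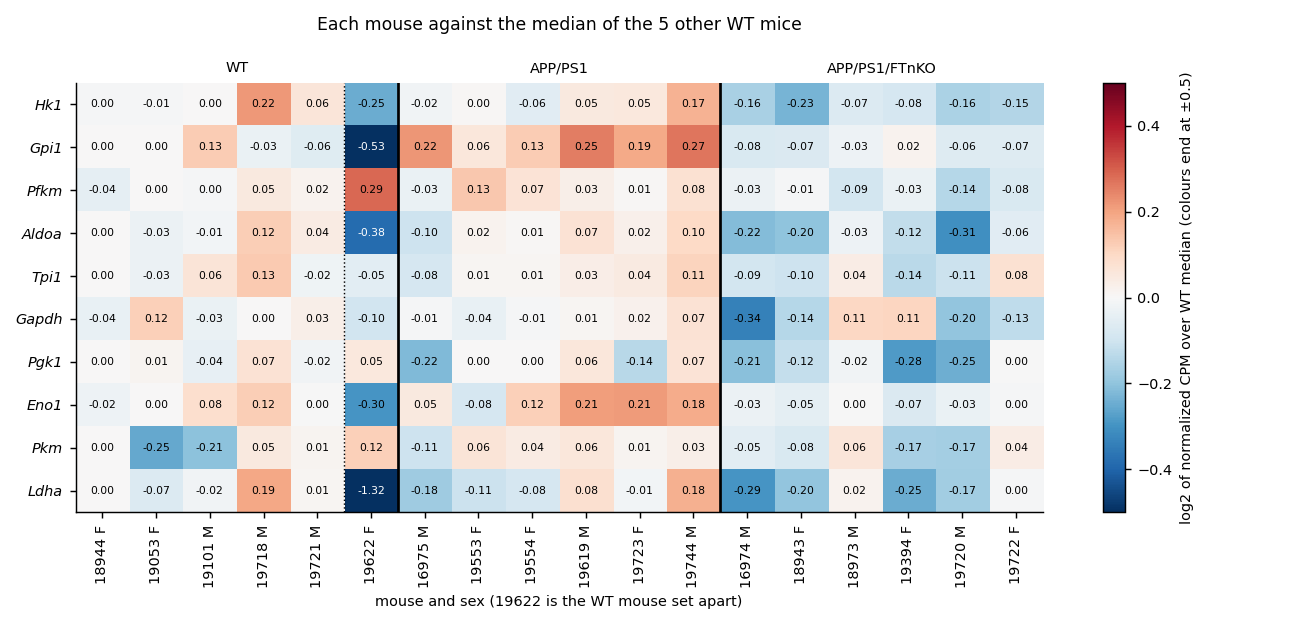
Log2 of normalized CPM over the median of 5 WT mice for each enzyme (rows, pathway order) and mouse (columns, F female, M male), with the value in each cell and colours that end at ±0.5. Blue prevails in the APP/PS1/FTnKO columns, where 6 to 10 of 10 enzymes lie below the WT median, and WT mouse 19622 has the deepest blue, -1.32 for Ldha.

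Cell type markers were summed in the same mice. The 8 excitatory neuron markers summed to 6996, 8220 and 9607 CPM in the lowest, median and highest APP/PS1 mouse and to 6165, 6764 and 7902 in the knockout, with 6 of 8 lower, 0 called in edgeR and 2 with an unadjusted p under 0.05. The 7 microglia markers summed to a median of 535 and 472 CPM, with 7 of 7 lower, 0 called and 4 with an unadjusted p under 0.05. The 8 astrocyte markers summed to 5225 and 4990, with 5 of 8 lower, 0 called and 1 with such a p. The 6 interneuron markers summed to 962 and 957 CPM, and all 6 were higher, with 0 called and 1 with such a p. Endothelial, oligodendrocyte, erythrocyte and cerebellar markers also had 0 called. None of these lists held a gene at 0 in all mice, and their part in the enzyme values was not tested.

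APP/PS1 mice were set against WT mice. RIN was 7.7 to 8.7 in the APP/PS1 mice and 8.5 to 8.8 in the WT mice, and the WT background is not settled. An effect of the transgenes cannot be told apart from RIN or background here. None of the 10 enzymes passed the test in edgeR (0 of 10, where 1.5% of all genes passed, 1.32% as higher and 0.178% as lower) and 1 did by DESeq2. On the log2 scale 4 were higher and 6 lower (50.6% of all genes were lower), their median was -0.0053, and 1 had an unadjusted p under 0.05 (14% of all genes). In 0 of 10 were the groups apart (2.4% of all genes). The median size of the difference was 0.038 for the 10 and 0.10 for all genes tested. Gpi1 was the exception, at 736 ± 40.6 CPM in APP/PS1 (SD, n = 6) and 650.0 ± 33.0 in WT mice (SD, n = 5), a log2 fold change of 0.18 (SE 0.048, adjusted p = 0.0677). The overlap came from WT mouse 19101 (705 CPM). It passed by DESeq2 (adjusted p = 0.00284) and in edgeR without APP/PS1 mouse 19553 (0.0465) or WT mouse 19101 (0.0484). Pkm (0.095) and Eno1 (0.087) were the next highest log2 differences, with adjusted p of 0.541 and 0.458. Hk1 (-0.013), Gapdh (-0.010), Tpi1 (-0.0065) and Aldoa (-0.0041) lay close to 0 on the log2 scale, and the widest of their 95% intervals, that of Gapdh, reached from -0.15 to 0.13.

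Knockout mice differed from WT mice in 1 of the 10 enzymes (3.87% of all genes passed, 1.65% as lower and 2.22% as higher), and 4 had an unadjusted p under 0.05 (22.1% of all genes). The median log2 fold change of the 10 was -0.094, that of all genes 0.0053, and 9 of 10 were lower (48.7% of all genes). This comparison and the previous ones share their groups of mice, so their values are not independent of each other. Hk1 was the enzyme that passed. WT mice had 362, 361, 363, 421 and 378 CPM, and the knockout 309, 326 and 346 as lowest, median and highest. The groups did not overlap, which was so for 5.6% of all genes. The means were 377 ± 25.7 (SD, n = 5) and 329 ± 13.5 (SD, n = 6), a log2 fold change of -0.19 (SE 0.050, edgeR adjusted p = 0.0414). The call held in 13 of 24 other settings, and was lost with WT mouse 19622 in the fit (adjusted p = 0.202), with RIN as a covariate (0.0801), without the filter (0.0832) and when 1 of 8 mice was left out (0.0546 to 0.128, the latter without WT 19718, the highest, and the others being WT 18944, 19053 and 19721, APP/PS1 19553, and APP/PS1/FTnKO 16974, 18943 and 19720).

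Aldoa, Ldha and Pgk1 had the next largest differences between these genotypes. WT mice measured 1524, 1494, 1509, 1662 and 1566 CPM of Aldoa against a median of 1362 in the knockout, and the ranges touched only where the highest knockout mouse (1497 CPM) passed the lowest WT mouse (1494). The log2 fold change was -0.18 (adjusted p = 0.0936, and 0.0259 by DESeq2). Ldha measured 251 ± 17.9 CPM in WT mice (SD, n = 5) and 223 ± 20.2 in the knockout (SD, n = 6), a log2 fold change of -0.16 (adjusted p = 0.182). Pgk1 measured 301 ± 8.80 and 272 ± 22.4 CPM, a log2 fold change of -0.15 (adjusted p = 0.175). Pkm was the only enzyme above 0 (0.017, adjusted p = 0.907), and its 5 WT mice were spread from 902 to 1113 CPM. Excitatory neuron markers were 8 of 8 lower with 1 called in this comparison (their sum had a median of 8053 CPM in WT mice), and astrocyte markers 7 of 8 higher with 1 called. The part of these cell types was not tested.

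**Figure D4:**
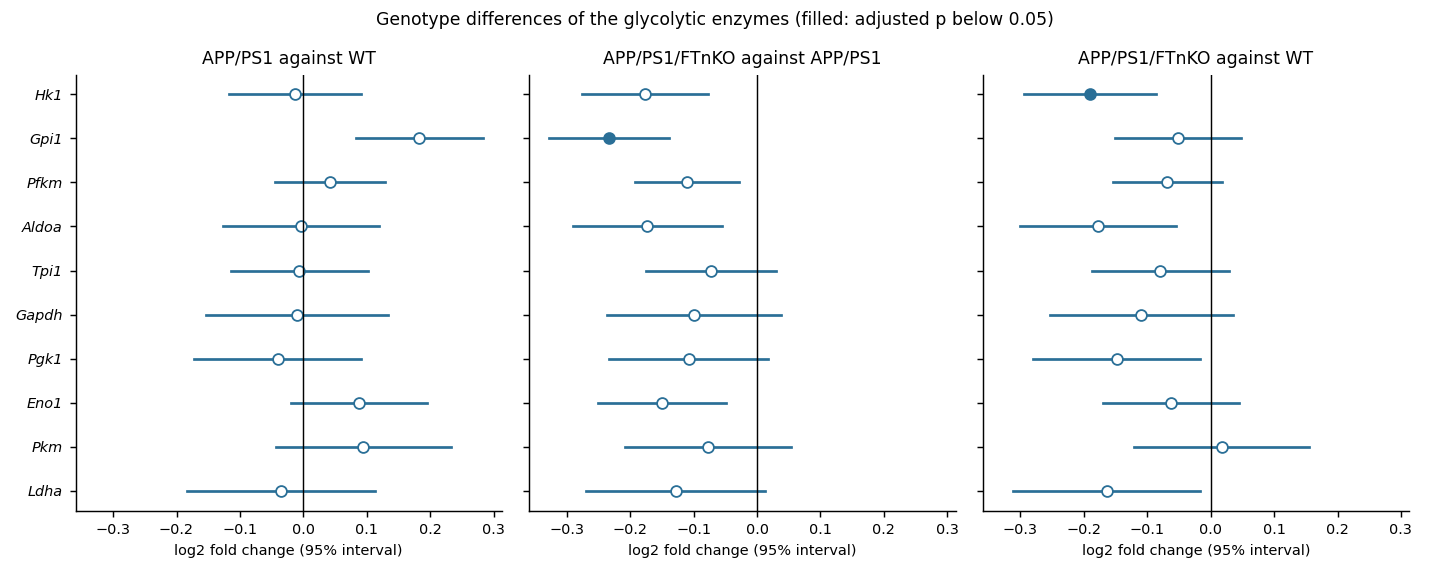
Log2 fold changes with 95% intervals of the 10 enzymes in the 3 genotype comparisons (edgeR, 17 mice), filled where the adjusted p is below 0.05. In the middle panel all 10 fold changes lie to the left of 0 (-0.23 to -0.073), but not all of their intervals do, and that of Tpi1 crosses 0. Only Gpi1 there and Hk1 in the comparison of APP/PS1/FTnKO with WT mice are filled.

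The second Aldoa row, ENSMUSG00000114515 at chr7:126800790-126809108, lies next to the main gene and held 20 to 54 counts per mouse. In the knockout it had a log2 fold change of 0.45 against APP/PS1 mice (SE 0.18, adjusted p = 0.350). Against WT mice it was 0.50 (adjusted p = 0.141), and neither passed.

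Females and males differed in none of the 10 enzymes, Pgk1 on the X chromosome included (0 of 10 called in edgeR, where 0.0689% of all genes passed, 0.0345% in each direction, and 0 of 10 with an unadjusted p under 0.05, where 6.7% of all genes had one). DESeq2 also called 0 of 10. In 7 of 10 the level was lower in females (50.6% of all genes), and in 0 of 10 were the sexes apart (0.0689% of all genes). The log2 differences of female against male mice were -0.065 for Ldha to 0.030 for Gapdh, and 0.0032 for Pgk1 (95% interval -0.10 to 0.11). The sex by genotype interaction was called for 0 of 10 and for 0% of all genes, with 2.65% of genes and none of the 10 under an unadjusted p of 0.05. Genotype effects were thus not shown to differ between the sexes, with 2 or 3 mice per sex and genotype.

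Most steps have further isozymes, and the share of each in a step was compared per length of exon. Hk1 made up 90.5% ± 0.537 of the hexokinase transcripts in WT mice (SD, n = 5). Its share was 88.3% ± 0.818 in the knockout (SD, n = 6) and 89.3% ± 1.63 among the 6 APP/PS1 mice, with Hk2 at 1.47 to 2.53% of them on average. Pfkm made up 65.2 to 67.2% of phosphofructokinase on average, a share that rests on the exon lengths (3340 bases for Pfkm and 13401 for Pfkp). Not divided by length, Pfkp was above Pfkm in WT mice, at 456 against 397 CPM on average. Pkm made up close to all of pyruvate kinase (99.996 to 99.999%). Aldoa made up 70.4% ± 1.30 of aldolase in WT, 66.5% ± 4.86 in APP/PS1 mice and 64.0% ± 4.17 in the knockout, and Aldoc most of the rest. Enolase and lactate dehydrogenase were mostly of the other form: Eno1 made up 25.9 to 28.0% beside the neuronal Eno2, and Ldha 19.9 to 20.9% beside Ldhb. The Eno1 share leaves out the copy Eno1b, with 1998 to 2753 counts per mouse, and rests on an exon length of 5379 bases for Eno1. Not divided by length, Eno1 measured 418 and Eno2 960 CPM on average in the 17 mice.

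Ratios of isozymes within a mouse do not depend on the scaling between mice, and 6 ratios were tested in 3 genotype comparisons (18 two-sided exact permutation tests). None passed after Benjamini-Hochberg adjustment over the 18, and 4 had an unadjusted p under 0.05. The log2 ratio of Hk1 to Hk2 was 6.46 ± 0.244 in WT mice, 5.69 ± 0.417 in APP/PS1 mice and 5.86 ± 0.344 in the knockout. The difference of APP/PS1 from WT mice was -0.77 (exact permutation p = 0.00866, adjusted p = 0.0779), where 0.00433 is the smallest p that 5 against 6 mice allow, and that of the knockout from WT mice was -0.60 (exact permutation p = 0.0173, adjusted p = 0.104). The log2 ratio of Aldoa to Aldoc was 1.096 ± 0.0907 in WT mice and 0.68 ± 0.263 in the knockout, a difference of -0.42 (exact permutation p = 0.00866, adjusted p = 0.0779). That of Eno1 to Eno2 was -1.27 ± 0.0512 in the knockout and -1.12 ± 0.135 in APP/PS1 mice, a difference of -0.15 (exact permutation p = 0.0303, adjusted p = 0.136). Counts of Eno1b were not part of this ratio. Pfkm to Pfkl, Pfkm to Pfkp and Ldha to Ldhb had adjusted p of 0.323 or more in every comparison. The astrocyte marker sum, at a median of 4375 CPM in WT mice, 5225 in APP/PS1 mice and 4990 in the knockout, had the same order of genotypes as Aldoc (726, 871 and 858 CPM on average), and its part in the ratios was not tested.

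**Figure D5:**
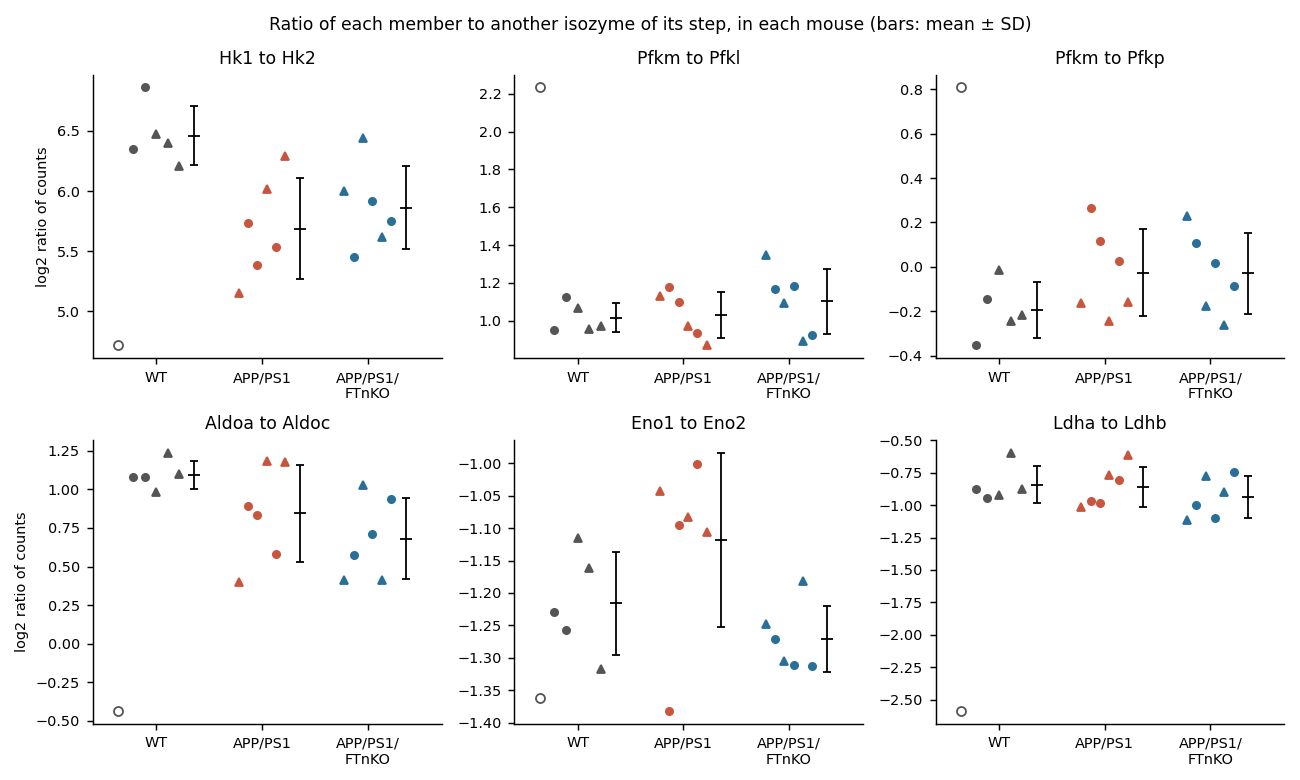
Log2 ratio of counts of each of 6 enzyme pairs in each mouse (y axes differ between panels and do not start at 0), with females as circles, males as triangles, WT mouse 19622 as an open circle, and mean ± SD per genotype without 19622 as bars. Hk1 to Hk2 averages 6.46 in WT and 5.69 in APP/PS1 mice, and mouse 19622 lies outside the other WT mice in all 6 panels.

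Further glycolytic isozymes numbered 20, of which 16 were tested, and those described here did not pass in any genotype comparison. Hk2, the inducible hexokinase, came close in APP/PS1 against WT mice (7.34 ± 1.79 against 4.29 ± 0.812 CPM, log2 fold change 0.76, adjusted p = 0.0503). Pgam1, the mutase between Pgk1 and Eno1, measured 142 ± 9.96 CPM in the knockout and 159 ± 9.34 in APP/PS1 mice (log2 fold change -0.16, adjusted p = 0.218), and 39.7% of its windows are shared with pseudogenes. In the knockout Adpgk, an ADP-dependent glucokinase, had log2 fold changes of 0.19 against APP/PS1 (adjusted p = 0.291) and 0.25 against WT mice (0.0647). Of the 16, 10 were lower in the knockout than in APP/PS1 mice, with a median of -0.037.

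Of 14 transporters of glucose and lactate, 1 passed. Slc16a3, a lactate exporter of glycolytic cells, was higher than in WT mice in APP/PS1 mice (4.69 ± 1.51 against 2.67 CPM, log2 fold change 0.74, adjusted p = 0.0491) and in the knockout (0.75, adjusted p = 0.0288), and had a log2 fold change of 0.011 between the transgenic genotypes. Microglia markers were 7 of 7 higher with 3 called in APP/PS1 against WT mice (median log2 fold change 0.34). They were 5 of 7 higher with 1 called in knockout against WT mice (median 0.025) and, as given above, 7 of 7 lower in knockout against APP/PS1 mice (median -0.27). The part of microglia in the values of Slc16a3 was not tested. Slc2a1, the glucose transporter of the blood-brain barrier and of astrocytes, measured 98.9 ± 7.29 CPM in the knockout and 120.1 ± 25.04 in APP/PS1 mice (log2 fold change -0.27, adjusted p = 0.339). Slc2a6 had -0.16 (0.369) in that comparison, and Slc16a7, a neuronal lactate importer, -0.34 (0.0579) in knockout against WT mice.

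Of 18 regulators of glycolysis, Mlxipl, which encodes the glucose-sensing factor ChREBP, passed. It was higher in APP/PS1 (8.22 ± 1.89 CPM, log2 fold change 0.99, adjusted p = 0.0126) and in the knockout (7.52 ± 2.09 CPM, 0.86, adjusted p = 0.0228) than in WT mice (4.14 CPM on average). Hif1a, the regulated HIF subunit, measured 60.0 ± 1.62 CPM in WT mice, 68.7 ± 3.80 in APP/PS1 mice and 62.4 ± 4.399 in the knockout. Its log2 fold change was 0.18 for APP/PS1 against WT (adjusted p = 0.0593) and -0.14 for knockout against APP/PS1 mice (0.220). Egln1 and Egln3, the prolyl hydroxylases that mark HIF for degradation, had -0.19 (adjusted p = 0.0801) and -0.44 (0.115) in the latter comparison. There 12 of the 18 regulators were lower, 0 were called, 6 had an unadjusted p under 0.05 and the median was -0.085. Of 13 HIF targets outside glycolysis 9 were lower, 0 called and 2 had an unadjusted p under 0.05, with P4ha1 (-0.31, adjusted p = 0.220) and Ddit4 (-0.31, 0.380) having the smallest p, and in the other comparisons 0 were called, Bnip3 and Car12 included.

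The genes around pyruvate and NADH gave 2 calls, both in knockout against WT mice. Pdk2, a kinase that shuts pyruvate dehydrogenase, was lower (86.2 ± 3.43 against 96.2 CPM, log2 fold change -0.16, adjusted p = 0.0465), as was Gpd1, the cytosolic enzyme of the glycerol phosphate shuttle (85.4 ± 7.91 against 101 CPM, -0.24, adjusted p = 0.0398). All 9 genes of the NADH shuttles were lower in the knockout than in APP/PS1 mice (median -0.081, 0 called, 2 with an unadjusted p under 0.05) and than in WT mice (median -0.11, 1 called). Mdh1 and Mdh2, the malate dehydrogenases, had -0.12 (adjusted p = 0.496) and -0.11 (0.375) in the former comparison and Slc25a12, the aspartate carrier, -0.046 (0.815). Of 14 genes from pyruvate to acetyl-CoA, 11 were lower in the knockout than in APP/PS1 mice with 0 called, and the smallest p belonged to Pdk3 (-0.24, adjusted p = 0.3304) and Pdk1 (0.19, 0.473). Against WT mice Pdk3 had -0.32 (0.0710) in the knockout, and Pdpr -0.27 (0.130) and Pdp1 -0.23 (0.374) in APP/PS1 mice.

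Branches that use the same sugars were read in the same way. In knockout against APP/PS1 mice 50.5% of all genes were lower, 0.327% passed and 11.5% had an unadjusted p under 0.05. Of 8 pentose phosphate genes 6 were higher in the knockout than in APP/PS1 mice, with 0 called and 0 under an unadjusted p of 0.05 (median 0.028), where the smallest p belonged to H6pd (0.11, adjusted p = 0.748) and Rpe (0.076, 0.770). Pgd and Tkt had 0.20 (adjusted p = 0.230) and 0.12 (0.306) in APP/PS1 against WT mice. Of 12 tested genes of gluconeogenesis and glycogen 8 were higher in the knockout than in APP/PS1 mice, with 0 called and 1 under an unadjusted p of 0.05 (median 0.030), among them Pygm with 0.17 (0.599), while Gys1 had -0.17 (0.288) and Pgm1 -0.013 (0.956). G6pc3, a glucose phosphatase, was higher in knockout than in WT mice (48.2 ± 4.66 against 39.2 CPM, log2 fold change 0.29, adjusted p = 0.0482). It was 1 of the 12 in that comparison, where 3.87% of all genes passed.

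WT mouse 19622 had another profile of the same pathway. Of the 10 enzymes 7 lay below the range of the other 5 WT mice, 2 above and 1 within. Ldha was the lowest against its genotype, at 98.4 CPM where the others had 235 to 282 (0.399-fold of their median). Gpi1 had 448 CPM against 620 to 705, Aldoa 1168 against 1494 to 1662, Eno1 331 against 399 to 442 and Hk1 305 against 361 to 421. Pfkm (483 against 384 to 409 CPM) and Pkm (1168 against 902 to 1113) were the ones above. Among their isozymes Aldoc, at 1578 CPM against 705 to 762, and Hk2, at 2.64-fold of the WT median, were higher, and Pfkl (0.518-fold) and Pfkp (0.592-fold) lower. Beside its cerebellar markers this mouse had 3131 CPM of excitatory neuron markers against 7445 to 9902 in the other WT mice and 10881 of oligodendrocyte markers against 3806 to 5792, while its RIN of 8.6 and its total count of 19330958 were within the range of the others. The part of these markers in its enzyme profile was not tested.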

How the data were processed

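Bulk mRNA of the frontal cortex of 18 mice had been prepared as stranded libraries. Per the labels and the study's methods, the authors used Trimmomatic 0.33 for trimming, HISAT2 2.1.0 for alignment to GRCm38 (the submitters' processing notes name mm10 and mm9, and FastQC 0.11.7) and featureCounts for counting. The deposited table holds these raw counts per Ensembl gene. For featureCounts, the sources used here give neither a version nor the annotation, strand mode or treatment of multi-mapping reads.

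Genotype, sex and RIN came from the sample labels. Replicate numbers only name the mice. The 17 mice without WT mouse 19622 entered 1 fit with sex and genotype as terms, by the quasi-likelihood test of edgeR 4.0.16 (R 4.3.3). Genes were kept by filterByExpr at its minimum count of 10, libraries were scaled by TMM, and p-values were adjusted by Benjamini-Hochberg over all 17414 genes kept, with a threshold of 0.05. The study also left out 1 WT mouse. Normalized CPM are counts scaled to a common size of the TMM-normalized library, and levels per kilobase divide them by the union of exons in GENCODE M21. Isozyme ratios were log2 ratios of counts plus 1, tested by exact permutation over mice (scipy 1.17.1). Alternatives were all 18 mice, DESeq2 1.42.0, RLE normalization, no filter, RIN as a covariate, no sex term, only the genotypes compared, each mouse left out, and for the ratios 5 counts added. The interaction in all 18 mice was added after the data were seen.

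The members and gene lists were chosen with earlier results of these data known. Genes named beside the 10 members are, for each further list, those past the threshold in any genotype comparison, those with the 2 smallest p in each, the isozymes of the ratios and Pgam1. Some of them are given only by their list's counts. The result of 1 such gene is not reported here. Copies of members were found by name and by shared windows of 100 bases, since protein sequences were not used here. Upstream sequences came from RefSeq (GRCm38.p6). Each genotype was 6 mice, so p-values measure the spread between mice, and 0 columns of the table were unused.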

Additional observations from a re-analysis of the deposited data

Results flagged for a closer look

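Values that stood apart within a genotype were looked for in 68 groups of 5 or 6 mice by the gap to the nearest other mouse, and 14 were found. Chance alone gives about 1 in 20 groups. WT mouse 19622 gave 9 of the 14, beside the other 5 WT mice. They were its CPM of Gpi1 (448), Pfkm (483), Aldoa (1168) and Ldha (98.4) and its log2 ratios of Hk1 to Hk2 (4.72, others 6.21 to 6.86), Pfkm to Pfkl (2.23, others 0.95 to 1.13), Pfkm to Pfkp (0.81, others -0.35 to -0.012), Aldoa to Aldoc (-0.43, others 0.98 to 1.24) and Ldha to Ldhb (-2.59, others -0.95 to -0.60).

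Among the 5 other WT mice, 19718 was high in Hk1 (421 CPM, others 361 to 378) and in Ldha (282 CPM, others 235 to 248), and its log2 ratio of Ldha to Ldhb was -0.60 (others -0.95 to -0.87). APP/PS1 mouse 16975 was low in Pkm (1001 CPM, others 1088 to 1126), and had the lowest RIN of its genotype (7.7). APP/PS1 mouse 19553 had a log2 ratio of Eno1 to Eno2 of -1.38 (others -1.11 to -1.002).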

How the results depend on the processing

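No paired analysis was possible because the labels give no replicate numbers that tie mice of different genotypes. In APP/PS1/FTnKO against APP/PS1 mice all 10 enzymes kept their lower direction in all 24 other settings, while which of them passed depended on the setting. Several of the small differences of APP/PS1 against WT and of female against male mice changed sign, as given below, and the causes were not tested.

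Counts of genes called for APP/PS1 against WT, APP/PS1/FTnKO against APP/PS1, APP/PS1/FTnKO against WT and female against male mice, 261, 57, 674 and 12 as reported, changed by more than 1.5 times as follows. With all 18 mice they were 2 and 261 for both knockout comparisons, with 0 enzymes called in each. With DESeq2 they were 468, 253, 1321 and 31, with 1, 2 and 2 enzymes called in the genotype comparisons. Without the filter they were 452, 104 and, for sex, 50, with 0 enzymes called in both knockout comparisons. With RIN as a covariate they were 84, 261 and 388, with 2 and 0 enzymes called in the knockout comparisons. With only the genotypes compared APP/PS1/FTnKO against APP/PS1 gave 5 genes and 0 enzymes. With 1 mouse left out the counts ran from 124 to 465, 10 to 81, 206 to 987 and 9 to 14, and the enzymes called from 0 to 1 in each genotype comparison and 0 to 0 for sex. The isozyme ratios that passed stayed at 0, and the interaction at 0 enzymes in all 18 mice.

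With all 18 mice the log2 fold changes that changed sign were, for APP/PS1 against WT mice, Hk1 (0.033), Pfkm (-0.0024), Aldoa (0.062), Tpi1 (0.0095), Gapdh (0.016) and Ldha (0.13), for APP/PS1/FTnKO against WT mice Gpi1 (0.027) and Pkm (-0.016), and for sex Pkm (0.0085). The isozyme differences that did were Pfkm to Pfkl (-0.19 and -0.12), Pfkm to Pfkp (-0.00021), Aldoa to Aldoc (0.0041) and Ldha to Ldhb (0.27 and 0.20), all against WT mice. With RIN as a covariate the APP/PS1 against WT values became 0.037 for Hk1, 0.056 for Aldoa, 0.036 for Tpi1, 0.073 for Gapdh, 0.024 for Pgk1 and 0.080 for Ldha. With only the genotypes compared Aldoa had 0.0021. Pgk1 by sex had -4.2e-05 by DESeq2 and -2.9e-05 with RLE.

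With 1 mouse left out sign changes came, for APP/PS1 against WT mice, in Hk1 (-0.039 to 0.025), Aldoa (-0.022 to 0.024), the second Aldoa row (-0.037 to 0.15), Tpi1 (-0.025 to 0.020), Gapdh (-0.030 to 0.018) and Ldha (-0.076 to 0.0055), in Pkm for APP/PS1/FTnKO against WT mice (-0.029 to 0.051), and by sex in Aldoa (-0.026 to 0.0099), Gapdh (-0.0020 to 0.060), Pgk1 (-0.022 to 0.024) and Pkm (-0.035 to 0.014). The ratios Ldha to Ldhb (-0.065 to 0.046) and Pfkm to Pfkl (-0.013 to 0.049) in APP/PS1 against WT and Pfkm to Pfkp in APP/PS1/FTnKO against APP/PS1 mice (-0.054 to 0.056) also did. Depth was no limit for the 10 enzymes, of which Gapdh had the fewest counts (807 in a mouse).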
